A study of Mus musculus with 12 samples.

Results

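Interferon-stimulated genes are the genes that cells switch on when they sense an interferon, and 53 of them were followed here by gene symbol in sorted mouse T cells. The members are picked by gene symbol, and the list was drawn up with earlier results of these data known. Of the 53 members, 51 were listed among 10405 gene symbols in regulatory T cells (Treg) and 52 among 9886 in conventional T cells (Tcon), and 51 were listed in both. Gbp3 was listed in neither table and Ifi44 in Tcon alone. No member shared all of its values with another symbol.

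The series asked how SAH-FOXP3(229-259)C, a peptide stapled into a helix and aimed at the transcription factor FOXP3, affects T cells in mice. Every mouse carried the B6.Cg-Foxp3tm2Tch/J (FOXP3-IRES-GFP) allele, in which the Foxp3 locus also encodes GFP, and this holds for the vehicle groups as well. Mice were injected intraperitoneally on each of 2 days with 25 mg/kg of the peptide (SAH) or with vehicle, which library titles call DMSO. Age and sex of the mice are not given in the labels. Each of the 2 cell types, CD4+CD25+FOXP3+ Treg and CD4+ Tcon, had 2 spleen SAH libraries (numbered 05 and 06), 1 spleen vehicle library (04), 2 lymph node SAH libraries (02 and 03) and 1 lymph node vehicle library (01). Each number is shared by 1 Treg and 1 Tcon library, which makes 12 libraries in all. The labels do not say whether the libraries came from separate mice or pools of mice, so p-values speak of the variation among these libraries, part of which may be technical.

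Type I interferons act through the receptor chains IFNAR1 and IFNAR2 and the kinases JAK1 and TYK2, which activate STAT2 among other factors. A complex that holds STAT2 and IRF9 binds the interferon-stimulated response element (ISRE) in promoters. Interferon gamma acts through its own receptor and factors that bind the gamma-activated site (GAS). The induced proteins sense foreign nucleic acid, block virus replication, attack the vacuoles of intracellular pathogens or damp the signal, and T cells keep a basal level of many of them without infection.

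The promoters show the elements through which this control is known to run. Of the 53 members, 39 matched the RefSeq promoter table (GRCm38.p6), which gives 250 bases before and 50 after each gene start. The ISRE core, which is GAAA, any 2 bases and GAAA again, searched on both strands, was found in 22 of the 39 (56.4%), while 3.99% of all 27025 genes of that table held it. The GAS core TTCNNNGAA, which reads the same on both strands, was found in 10 of the 39 (25.6%) and in 9.55% of all genes. Members with the ISRE core were Ifit1, Ifit3, Isg15, Oas1a, Oas3, Stat2, Rsad2, Ifi203, Bst2, Trim30a, Ddx58, Ifih1, Gbp2, Gbp3, Gbp7, Igtp, Irgm1, Irgm2, Slfn5, Slfn8, Apol9a and Apol9b. Members with the GAS core were Ifit2, Isg20, Oas1a, Irf1, Ifi35, Bst2, Gbp7, Igtp, Irgm2 and Samhd1. A match of letters is a description and not evidence of binding.

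Of the members called in 2 of the comparisons described further on, Usp18 and Oas2 had no match in the promoter table. The 250 bases upstream of 4 other such members are printed 5′ to 3′ on the strand of the gene. Holding the ISRE core upstream was a condition for printing these 4, so its presence in them is no result. They are Apol9b (chr15:77728822-77729071, plus strand), Apol9a (chr15:77411081-77411330, minus strand), Ifit1 (chr19:34640639-34640888, plus strand) and Ifi203 (chr1:173942493-173942742, minus strand). Capitals mark the ISRE core or its reverse complement, which is TTTC, any 2 bases and TTTC.
Apol9b: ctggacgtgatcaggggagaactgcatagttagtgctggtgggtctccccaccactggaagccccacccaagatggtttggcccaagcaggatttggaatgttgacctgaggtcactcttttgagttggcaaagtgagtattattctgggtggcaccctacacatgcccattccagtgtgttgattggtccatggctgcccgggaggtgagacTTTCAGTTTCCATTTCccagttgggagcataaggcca
Apol9a: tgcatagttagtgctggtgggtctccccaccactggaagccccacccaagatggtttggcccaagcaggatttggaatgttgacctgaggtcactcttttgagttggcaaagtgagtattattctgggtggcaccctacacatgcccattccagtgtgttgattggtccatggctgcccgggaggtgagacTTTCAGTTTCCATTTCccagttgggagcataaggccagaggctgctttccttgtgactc
Ifit1: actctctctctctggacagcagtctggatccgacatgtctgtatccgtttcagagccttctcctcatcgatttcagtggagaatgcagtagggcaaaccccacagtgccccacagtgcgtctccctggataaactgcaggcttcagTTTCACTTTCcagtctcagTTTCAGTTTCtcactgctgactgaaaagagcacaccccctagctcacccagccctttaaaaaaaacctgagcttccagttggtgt
Ifi203: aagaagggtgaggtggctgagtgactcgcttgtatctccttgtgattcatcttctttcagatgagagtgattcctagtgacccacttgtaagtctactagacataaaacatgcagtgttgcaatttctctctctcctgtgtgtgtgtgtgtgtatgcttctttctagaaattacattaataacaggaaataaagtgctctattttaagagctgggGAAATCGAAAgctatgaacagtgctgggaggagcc
Apol9b and Apol9a each hold 2 overlapping copies of the core in 1 run, which begins 37 bases before the RefSeq start of Apol9b and 59 before that of Apol9a. Their windows aligned over 228 identical bases with 0 mismatches. Ifit1 holds 2 separate copies, beginning 104 and 85 bases before its RefSeq start, and Ifi203 holds 1, beginning 35 bases before its own. The GENCODE annotation places the start of each of these genes inside the printed window, so part of each window lies within the GENCODE gene. For Ifi203 that part holds the ISRE core.

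Libraries held between 36442420 and 48888678 reads in the listed genes, rebuilt from the step size of the low values, so that 1 read was worth at most 0.0267 CPM (counts scaled per library, as the headers name them). Foxp3 stood at 655 to 726 CPM in Treg libraries and 19.6 to 24.9 CPM in Tcon libraries, and Il2ra, the gene of CD25, at 520 to 788 and 3.85 to 6.94 CPM. Members are given in CPM of tables that the authors normalized separately for each cell type, and CPM is not corrected for gene length. Levels of different genes, and levels of Treg against Tcon, are therefore not compared. In bulk RNA, fewer cells of a type and less RNA per cell cannot be told apart.

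Markers of other cells differed between the organs. In Treg, 6 of 13 myeloid and dendritic markers were listed and summed to 70.1 to 109 CPM in spleen, against 29.9 to 32.6 CPM in lymph node. The 3 listed of 6 plasma cell markers summed to 215 to 250 CPM in spleen and 107 to 128 CPM in lymph node, and the 4 listed of 10 B cell markers to 27.6 to 28.1 and 19.3 to 21.2 CPM. Among these B cell markers Cd79a and Cd22 were higher in spleen, while Cd79b and Bank1 overlapped between organs. Of the plasma cell markers in Treg, Jchain was at 72.1 to 119.9 CPM in spleen and 0.147 to 0.849 CPM in lymph node. Xbp1 was at 96.5 to 104.9 and 81.3 to 97.55 CPM, and Prdm1 at 31.4 to 42.3 and 24.3 to 30.7 CPM. In Tcon the 3 plasma cell markers summed to 154.9 to 231.4 and 106.2 to 135.9 CPM, with Jchain at 36.7 to 102.5 and 0.281 to 0.373 CPM. Prdm1 was higher in spleen in Tcon too, while Xbp1 overlapped between organs. In Tcon, 7 of 10 CD8 and natural killer markers were listed and summed to 86.4 to 114 CPM in spleen, against 41.2 to 46.7 CPM in lymph node, while the 5 listed in Treg summed to 33.5 to 34.8 and 40.6 to 41.1 CPM. In Tcon, 4 of 13 myeloid markers summed to 44.9 to 51.8 and 23.6 to 25.5 CPM. Of these, Lyz2 was at 18.05 to 22.73 CPM in spleen and 0.080 to 0.664 CPM in lymph node, while Itgam, Cd68 and Cst3 overlapped between organs. The 2 listed of 10 B cell markers summed to 5.39 to 6.85 CPM in Tcon from spleen and 2.68 to 3.56 CPM in Tcon from lymph node. The sum of the 4 listed plasmacytoid dendritic markers, 1 of which is the member Bst2, overlapped between organs in Tcon (45.1 to 64.8 and 46.5 to 53.4 CPM). In Treg it was 75.3 to 83.0 CPM in spleen and 81.1 to 89.4 CPM in lymph node. The red cell gene Alas2 was at 28.9 CPM in Treg library 06, against 2.31 and 4.18 CPM in the other spleen libraries and under 1 CPM in lymph node. Siglech, Ms4a1, Flt3 and Clec9a were not listed in either table. The part of these cells in the results was not tested.

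Before any comparison, 2 of the 6 library numbers stood apart over the members. Lymph node SAH library 02 held the highest value of 39 of 51 members in Treg and 39 of 52 in Tcon, while it was highest for 17.0% and 17.7% of all genes. Spleen SAH library 06 held the lowest value of 37 of 51 members in Treg and 45 of 52 in Tcon, against 21.0% and 20.3% of all genes. The members' median deviation from their own 6-library mean, in log2(CPM + 1), was 0.19 in library 02 and -0.19 in library 06 in Treg, and 0.23 and -0.29 in Tcon. Over all genes these 4 medians rounded to 0.00. The same number was highest in both cell types for 37 of the 51 shared members, and for 33 of these it was 02. Counts of members are given without them as well.

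**Figure D1:**
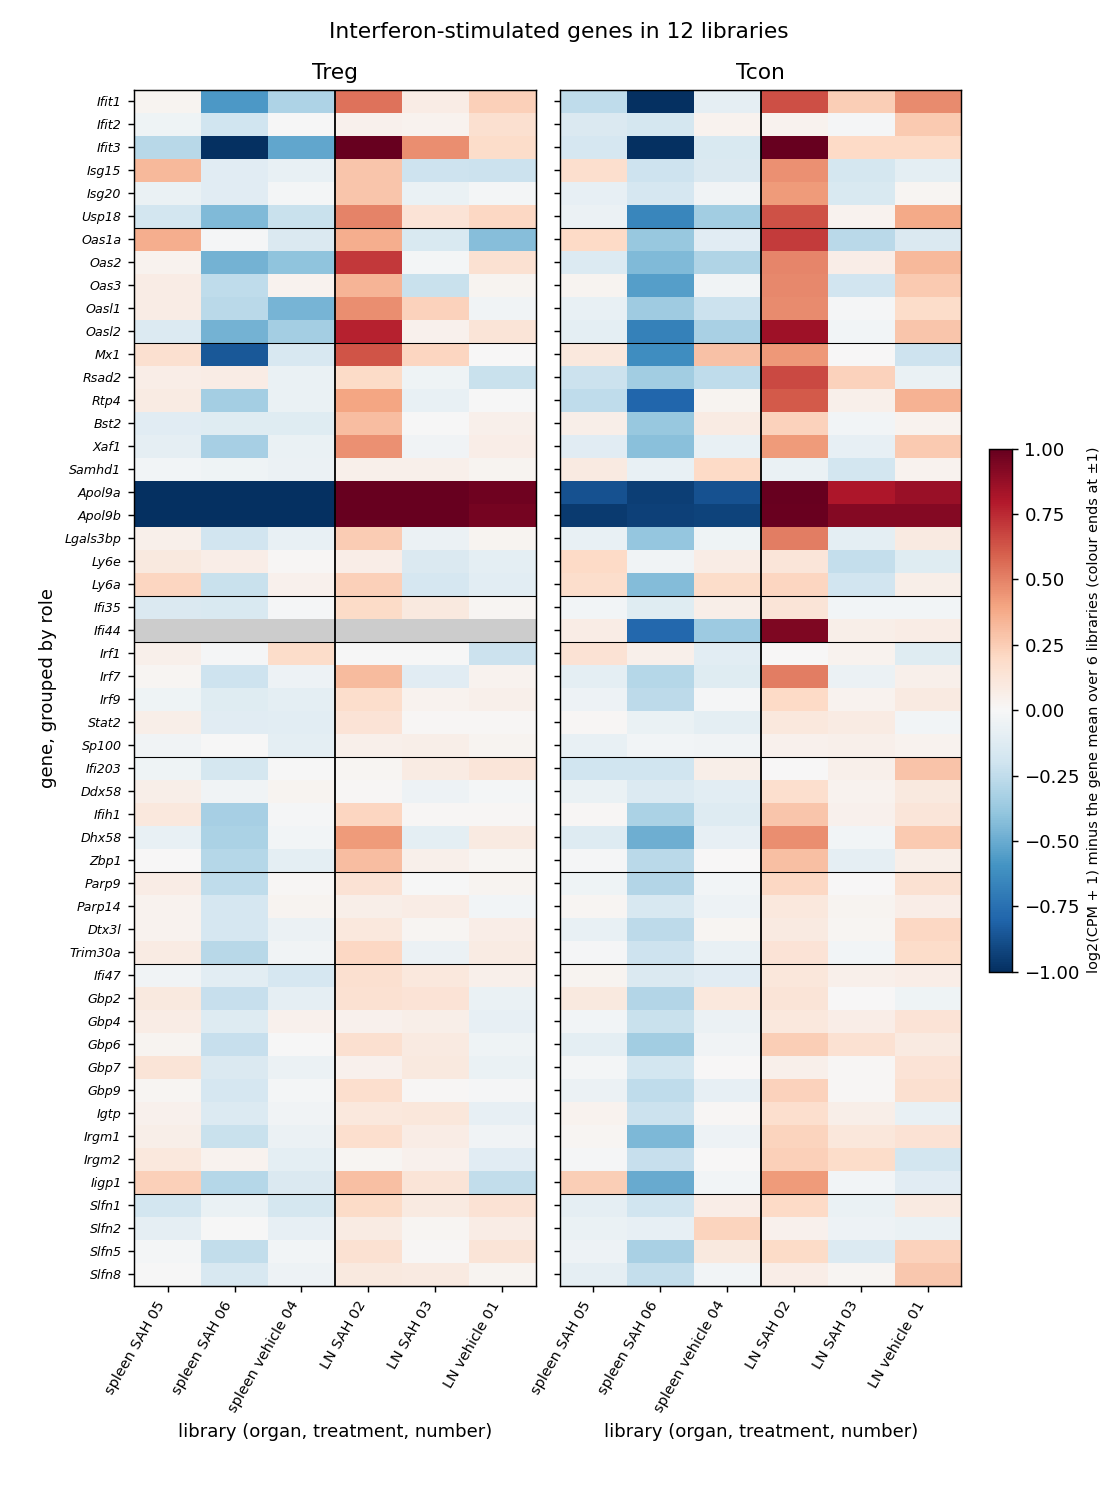
Each row is a member, grouped by role, and each column a library of Treg (left panel) or Tcon (right panel). Colour shows log2(CPM + 1) minus the gene's own mean over 6 libraries, with the scale ending at 1 and -1, and grey marks Ifi44, which was not listed in Treg. The columns of library 02 are mostly red and those of library 06 mostly blue in both panels, and Apol9a and Apol9b split by organ.

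The spread between SAH libraries of 1 organ shows the same pattern. Of 51 members in Treg, 43 were higher in lymph node SAH library 02 than in 03, and of 52 in Tcon 49 were, against 48.8% and 50.6% of all genes. The median difference over members was 0.15 in Treg and 0.23 in Tcon on the log2(CPM + 1) scale. Between spleen SAH libraries 05 and 06, 46 of 51 Treg members and 49 of 52 Tcon members were higher in 05, against 50.2% and 51.2% of all genes, with medians of 0.23 and 0.24. Members higher in 02 than 03 in both cell types numbered 43 of 51 (32.1% of all genes), and members higher in 05 than 06 in both numbered 44 of 51 (32.2% of all genes). Mx1, a gene of the dynamin-like GTPase family, was at 12.2 CPM in library 05 and 5.58 CPM in 06 in Treg, and at 4.97 and 2.61 CPM in Tcon. Ifit3, an RNA-binding antiviral protein, was at 44.3 CPM in library 02 and 27.3 CPM in 03 in Treg, and at 39.6 and 21.9 CPM in Tcon. Sp100, a protein of nuclear bodies, lay close together within each pair, at 451 and 460 CPM in libraries 05 and 06 and 479 and 480 CPM in 02 and 03 in Treg. The libraries of a pair share organ and treatment, so neither term of the models accounts for these differences, and what they reflect was not tested.

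**Figure D2:**
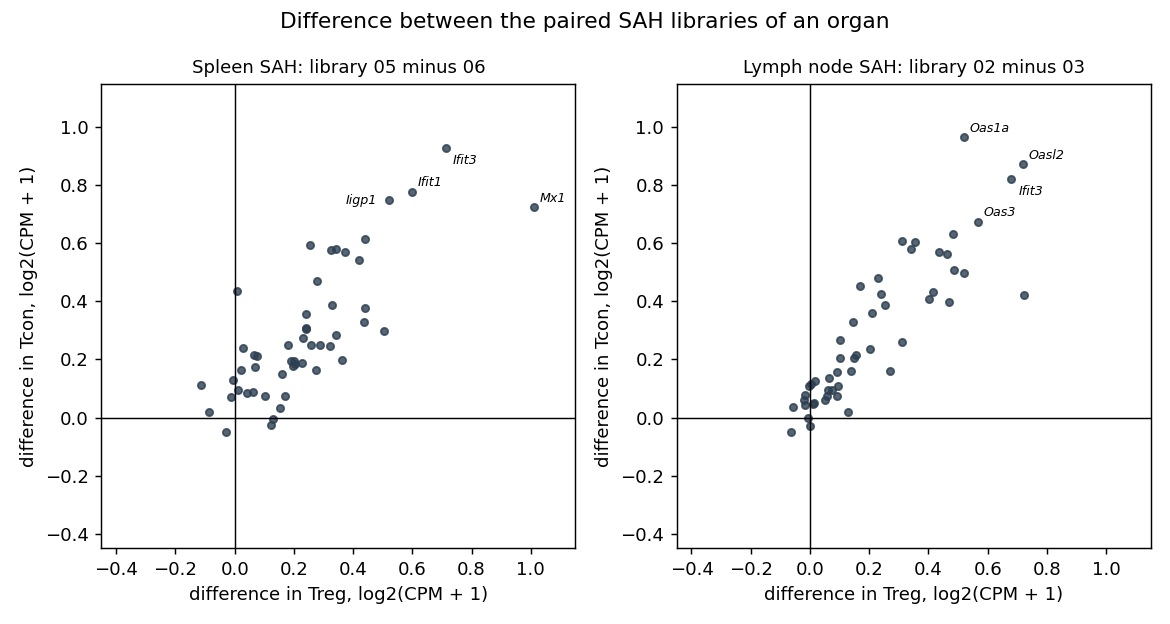
Each point is 1 of 51 members, placed by the difference between the paired SAH libraries in Treg (x axis) and in Tcon (y axis), in log2(CPM + 1). The left panel shows spleen library 05 minus 06 and the right panel lymph node library 02 minus 03. In both panels most points lie above and to the right of 0.

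In Treg, SAH was followed by no called change in any of the 51 members. A gene was called when its adjusted p (limma on log2(CPM + 1), Benjamini-Hochberg over all genes of the table) was below 0.05, which 0.202% of all genes met (0.135% higher and 0.0673% lower). Of the members, 0 were called, 5 had an unadjusted p below 0.05 (733 of all genes did), and the lowest adjusted p was 0.417. Positive log2 changes numbered 39 of 51, against 51.8% of all genes, and the members' median was 0.04, against 0.00 over all genes. Leaving out lymph node vehicle library 01 gave a median of -0.03, and leaving out spleen vehicle library 04 one of 0.11, and the count of members called was 3 without spleen SAH library 06 (Oas1a, Gbp2 and Iigp1, all higher), where 95 of all genes were called, against 21 with all libraries. All 4 SAH libraries lay above the vehicle library of their organ for 7 members (13.4% of all genes), namely Oas1a, Oasl1, Rsad2, Ifi47, Irgm2, Samhd1 and Sp100. They lay below it for Ifit2 and Ifi203 (11.7% of all genes).

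The 5 members with an unadjusted p below 0.05 (limma) in Treg had positive changes, as had 456 of the 733 such genes among all genes. Oas1a, which makes the short oligoadenylates that activate RNase L, was at 30.2 and 23.1 CPM in spleen SAH and 21.0 CPM in spleen vehicle, and at 30.3 and 20.8 CPM in lymph node SAH and 17.1 CPM in lymph node vehicle. Its log2 change was 0.42 (SE 0.13, 95% interval 0.15 to 0.70, adjusted p = 0.417). Within each organ both SAH libraries lay above vehicle, but the lower SAH library was close to it in spleen. The related gene Oasl1 stood at 6.50 and 4.92 CPM in spleen SAH and 4.16 CPM in spleen vehicle, with 8.84 and 7.38 CPM in lymph node SAH and 5.94 CPM in lymph node vehicle. Its change was 0.38 (SE 0.12, adjusted p = 0.459). Iigp1, a GTPase that acts on pathogen vacuoles, had a change of 0.29 (adjusted p = 0.622), Rsad2, the antiviral enzyme viperin, 0.21 (adjusted p = 0.699) and Irgm2, a regulator of such GTPases, 0.15 (adjusted p = 0.474). Of the 50-base words of Oas1a transcripts, 57.6% also occur in Oas1g, so the split of reads between these loci is uncertain.

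Levels in Treg are given for 1 or 2 members of each role with the highest CPM, a choice for display that is not corrected for gene length. Ifit2, an RNA-binding protein with antiviral activity, was at 73.8 and 66.3 CPM in spleen SAH and 75.9 CPM in spleen vehicle, and at 78.6 and 77.9 CPM in lymph node SAH and 85.3 CPM in lymph node vehicle. SAH was the lower in each organ, with a log2 change of -0.12 (95% interval -0.24 to 0.00). Irf1, a transcription factor that interferons induce, was at 507 and 486 CPM in spleen SAH and 555 CPM in spleen vehicle, and at 487 and 487 CPM in lymph node SAH and 422 CPM in lymph node vehicle. Its SAH libraries were the lower in spleen and the higher in lymph node. Sp100 was at 451 and 459.6 CPM in spleen SAH and 430.5 CPM in spleen vehicle, and at 479 and 480.3 CPM in lymph node SAH and 469 CPM in lymph node vehicle, with SAH slightly above vehicle in each organ. Ifi203, of the HIN-200 family of DNA-binding proteins, stood at 404 and 369 CPM in spleen SAH and 415 CPM in spleen vehicle, and at 423 and 442 CPM in lymph node SAH and 453 CPM in lymph node vehicle. Both SAH libraries lay below vehicle in each organ, and its log2 change was -0.09 (95% interval -0.20 to 0.03, adjusted p = 0.867).

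Among antiviral effectors in Treg, Ly6e, a GPI-anchored surface protein, was at 1262 and 1238 CPM in spleen SAH and 1195 CPM in spleen vehicle, and at 1239 and 1070.0 CPM in lymph node SAH and 1103 CPM in lymph node vehicle. Samhd1, which destroys the deoxynucleotides that viruses need, was at 1024 and 1008 CPM in spleen SAH and 998 CPM in spleen vehicle, and at 1081 and 1077 CPM in lymph node SAH and 1062 CPM in lymph node vehicle. For Ly6e the lymph node SAH libraries fell on either side of vehicle, and for Samhd1 every SAH library was above it. Oas3, of the same enzyme family as Oas1a, was at 35.9 and 28.4 CPM in spleen SAH and 35.1 CPM in spleen vehicle, and at 43.5 and 29.0 CPM in lymph node SAH and 34.8 CPM in lymph node vehicle. Parp14, an ADP-ribosyltransferase, was at 354 and 309 CPM in spleen SAH and 353 CPM in spleen vehicle, and at 360.0 and 364 CPM in lymph node SAH and 339 CPM in lymph node vehicle. Neither gene had its spleen SAH libraries on 1 side of vehicle. Gbp4, a guanylate-binding protein, was at 351 and 305 CPM in spleen SAH and 344 CPM in spleen vehicle, and at 343 and 346 CPM in lymph node SAH and 315 CPM in lymph node vehicle. Slfn2, a Schlafen protein known from mice for keeping T cells quiescent, was at 183 and 194 CPM in spleen SAH and 183 CPM in spleen vehicle, and at 206 and 198 CPM in lymph node SAH and 205 CPM in lymph node vehicle. Slfn5 was at 207 and 176 CPM in spleen SAH and 206 CPM in spleen vehicle, and at 233 and 211 CPM in lymph node SAH and 229.9 CPM in lymph node vehicle. Ifi35 was at 49.1 and 48.8 CPM in spleen SAH and 53.8 CPM in spleen vehicle, and at 62.2 and 58.3 CPM in lymph node SAH and 55.2 CPM in lymph node vehicle. Both SAH libraries were above vehicle in lymph node for Gbp4 and Ifi35, and both were below it in spleen for Ifi35. The median change of the 10 interferon-inducible GTPases was 0.09, with all 10 positive, that of the 5 oligoadenylate synthetase genes 0.18 with 4 positive, and that of the 4 ubiquitin and ADP-ribose genes (Parp9, Parp14, Dtx3l and Trim30a) -0.02 with 0 positive.

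In Tcon, SAH was followed by lower Ifi203 RNA, and this was the 1 member called of 52. Of all genes 1.04% were called, 0.88% higher and 0.162% lower. Ifi203 (chromosome 1, 173920407 to 173942672 on the minus strand in mm10) was at 355 and 356 CPM in spleen SAH and 424 CPM in spleen vehicle, and at 408 and 423 CPM in lymph node SAH and 498 CPM in lymph node vehicle. All 4 SAH libraries lay below the vehicle library of their organ. Its log2 change was -0.26 (SE 0.05, 95% interval -0.37 to -0.15, adjusted p = 0.0467), a fold of 0.836. The call was kept without library 02 and lost when any of the other 5 libraries was left out, with log2 changes between -0.27 and -0.25 and adjusted p up to 0.289. It was also lost without the intensity trend of limma. Exons of Ifi203 overlap the neighbouring gene Mndal, and 12.2% of its 50-base words occur in other genes, so how its reads were assigned is uncertain. In the authors' deposited table Ifi203 had a log2 fold change of -0.26 and a false discovery rate of 0.00529.

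Ifit2 was the second member marked as lower in the authors' deposited table for Tcon, with a log2 fold change of -0.22 and a false discovery rate of 0.0190. It was at 96.0 and 93.9 CPM in spleen SAH and 108 CPM in spleen vehicle, and at 108 and 105 CPM in lymph node SAH and 127 CPM in lymph node vehicle. All 4 SAH libraries lay below vehicle, with both spleen SAH libraries at a similar distance from it. With limma its change was -0.22 (SE 0.05, 95% interval -0.34 to -0.10, adjusted p = 0.0787), and it was called only without libraries 02 and 06 together. For Treg the authors' deposited table marked 0 members, and its lowest false discovery rate among them was 0.363.

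Over all 52 members in Tcon, 33 had a negative log2 change, against 51.1% of all genes, and the median was -0.04, against -0.00 over all genes. Leaving out lymph node vehicle library 01 gave a median of -0.12, and it was 0.03 without spleen vehicle library 04 and 0.03 without spleen SAH library 06. An unadjusted p below 0.05 (limma) was reached by 1391 of all 9886 genes and by 7 of the 52 members. Besides Ifi203 and Ifit2 these were Slfn8 (-0.18, adjusted p = 0.198), Samhd1 (-0.18, adjusted p = 0.232), the ubiquitin ligase gene Dtx3l (-0.17, adjusted p = 0.256), Slfn5 (-0.24, adjusted p = 0.293) and, with the positive sign, Irf1 (0.17, adjusted p = 0.168). All 4 SAH libraries lay below their organ's vehicle for 7 members, which were Ifit2, Ifi203, Dtx3l, Gbp7, Samhd1, Slfn5 and Slfn8, as for 16.7% of all genes. They lay above it for Irf1 and Stat2, as for 16.6% of all genes. Without libraries 02 and 06, a choice made after the data were seen, 5 members were called, with Irf1 higher and Ifit2, Rtp4, Ifi203 and Slfn5 lower. That fit called 502 of 9886 genes in all, against 103 with all libraries.

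Irf1 in Tcon was at 613 and 576 CPM in spleen SAH and 517 CPM in spleen vehicle, and at 556 and 568 CPM in lymph node SAH and 509.6 CPM in lymph node vehicle, so every SAH library exceeded its vehicle. Samhd1 was at 439.6 and 392.2 CPM in spleen SAH and 473 CPM in spleen vehicle, and at 393 and 362 CPM in lymph node SAH and 424 CPM in lymph node vehicle, below vehicle throughout, whereas in Treg it lay above. Ly6e was at 638 and 541 CPM in spleen SAH and 586 CPM in spleen vehicle, and at 604 and 470.0 CPM in lymph node SAH and 509 CPM in lymph node vehicle, and its SAH libraries fell on both sides of vehicle in each organ. Sp100 was at 502 and 519 CPM in spleen SAH and 516 CPM in spleen vehicle, and at 545 and 546 CPM in lymph node SAH and 539.9 CPM in lymph node vehicle, with SAH on both sides of vehicle in spleen and above it in lymph node. Oas2, an oligoadenylate synthetase, was at 32.1 and 25.9 CPM in spleen SAH and 28.6 CPM in spleen vehicle, and at 50.04 and 37.1 CPM in lymph node SAH and 44.7 CPM in lymph node vehicle, and its lymph node SAH libraries were the highest and the lowest of their organ. Parp14 was at 222 and 196 CPM in spleen SAH and 212 CPM in spleen vehicle, and at 235 and 223 CPM in lymph node SAH and 229 CPM in lymph node vehicle. Gbp4 was at 317 and 277 CPM in spleen SAH and 312 CPM in spleen vehicle, and at 349 and 338 CPM in lymph node SAH and 357 CPM in lymph node vehicle. In spleen the SAH libraries of both genes fell on either side of vehicle. Slfn2 was at 312 and 308 CPM in spleen SAH and 381 CPM in spleen vehicle, and at 337 and 315 CPM in lymph node SAH and 312 CPM in lymph node vehicle, with spleen vehicle above all other libraries. Ifi35 was at 46.6 and 43.6 CPM in spleen SAH and 49.4 CPM in spleen vehicle, and at 52.1 and 46.6 CPM in lymph node SAH and 46.6 CPM in lymph node vehicle, and both of its spleen SAH libraries were below vehicle.

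**Figure D3:**
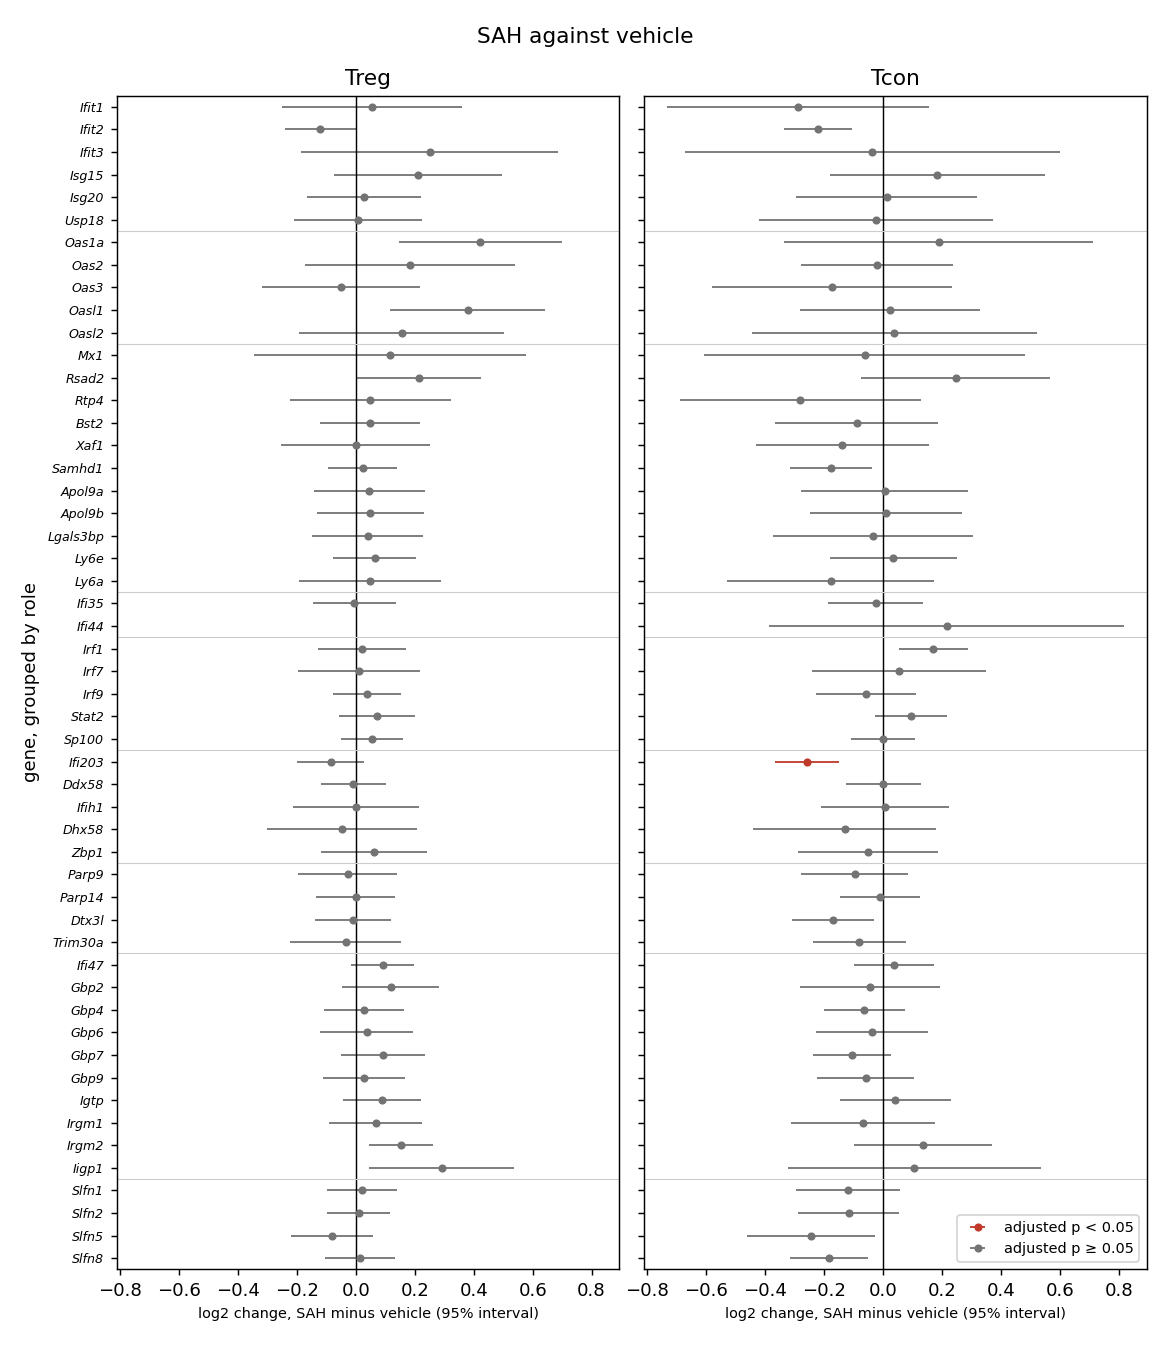
Each point is the log2 change of 1 member, SAH minus vehicle, with its 95% interval (x axis), for Treg (left panel) and Tcon (right panel), members grouped by role from top to bottom. Red marks an adjusted p below 0.05, which Ifi203 in Tcon alone has. In Treg most points lie at or right of 0, with Oas1a at 0.42 and Oasl1 at 0.38, and in Tcon most lie left of it.

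The SAH libraries were also set against vehicle within each organ. In lymph node, both SAH libraries were above vehicle for 26 of 51 members in Treg (36.8% of all genes) and below it for 2 (31.4% of all genes). In spleen, both were above for 8 (30.4%) and below for 9 (30.5%). In Tcon from lymph node, both were above for 12 of 52 (33.7%) and below for 9 (33.1%), and in Tcon from spleen, above for 2 (36.5%) and below for 27 (40.0%). The difference between organs of the SAH effect was tested as an interaction. It had a negative sign, lower in spleen, in 42 of 51 members in Treg and 43 of 52 in Tcon, with medians of -0.15 and -0.11, against 51.6% and 52.3% of all genes. No member was called in either cell type (limma, adjusted p of at least 0.91), where 0.00961% of all genes in Treg and 0% in Tcon were called. Over all genes, unadjusted p-values below 0.05 numbered 251 of 10405 in Treg and 504 of 9886 in Tcon. Among members they numbered 2 in Treg (Ifit3 at -0.74 and Irf1 at -0.37) and 3 in Tcon (Mx1 at -0.98, Irgm2 at -0.51 and Slfn2 at -0.36). In Treg the median was 0.01 without library 02 and -0.01 without library 06, and in Tcon it was 0.01 without either. Most members were highest in 02 and lowest in 06, so the direction of these shifts was fixed in advance. Without spleen SAH library 05, 5 members were called in Treg, all lower (Ifit3, Mx1, Gbp6, Iigp1 and Ly6a), while calls over all genes numbered 94, against 1 with all libraries. That fit sets 1 spleen SAH library against 1 vehicle library and takes its spread from the lymph node SAH pair.

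The SAH effect in Treg minus that in Tcon was positive for 45 of 51 members, with a median of 0.10, against 51.5% of all genes and a median of 0.00. No member was called, as 0% of all genes were. An unadjusted p below 0.05 (limma) was reached by 453 of all 9784 genes and by 3 members: Ifi203 at 0.17, Samhd1 at 0.20 and Slfn8 at 0.20. Because each library number is shared by a Treg and a Tcon library, this difference was also fitted with the number as a block. The blocked fit called 0 members and 0.777% of all genes, and 13 members had an unadjusted p below 0.05. The median was 0.02 without the Treg library 01, 0.02 without the Tcon library 04 and 0.02 without the Tcon library 06.

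Between the organs, the apolipoprotein L genes Apol9a and Apol9b, the RNA-binding Ifit1, the ISG15 protease gene Usp18 and the oligoadenylate synthetase gene Oas2 were lower in spleen than in lymph node in both cell types. In Treg, 15 of 51 members were called lower in spleen and 0 higher, where 14.7% of all genes were called, 6.01% lower and 8.71% higher. In Tcon, 8 of 52 were called lower and 0 higher, where 4.73% of all genes were called, 1.46% lower and 3.28% higher. The members' median log2 difference, spleen minus lymph node, was -0.14 in Treg and -0.20 in Tcon, against -0.00 over all genes of either table. Negative differences numbered 43 of 51 in Treg (51.0% of all genes) and 48 of 52 in Tcon (50.7% of all genes). These 5 genes called in both cell types are 33.3% of the Treg calls and 62.5% of the Tcon calls. Apol9a and Apol9b were below 1 CPM in every spleen library of Tcon, so their share in the Tcon calls supports nothing. Spleen and lymph node libraries did not overlap, with spleen below, for 20 of 51 members in Treg (15.1% of all genes) and 25 of 52 in Tcon (9.33% of all genes). Spleen lay wholly above for 0 members in either cell type, as it did for 16.8% and 10% of all genes.

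The counts changed when single libraries were left out. Without lymph node SAH library 02 the count in Treg was 5 (Ifit3, Usp18, Slfn1, Apol9a and Apol9b), without lymph node vehicle library 01 it was 8, without spleen vehicle library 04 it was 9, and without spleen SAH library 05 it was 22. In Tcon it was 5 without library 01, 5 without 02, 4 without 03 and 3 without 06, and 10 without 05. Without both 02 and 06, 6 members were lower and 2 higher (Oas1a and Ly6a) in Treg, and 12 were lower and 3 higher (Samhd1, Ly6e and Ly6a) in Tcon. The median difference was then -0.03 in Treg and -0.10 in Tcon. Libraries 02 and 06 were chosen because most members were highest in 02, from lymph node, and lowest in 06, from spleen. Leaving out either was bound to shrink the spleen minus lymph node difference of those members, so the direction of this shift is no result. Calls over all genes moved as well. In Treg they numbered 768 without 02, 783 without 01, 789 without 04, 1613 without 05 and 1188 without 02 and 06, against 1531 with all libraries. In Tcon they numbered 263 without 01, 628 without 02, 215 without 03, 315 without 05, 301 without 06 and 1155 without 02 and 06, against 468. Members called lower in Treg in every fit with 1 library left out were Apol9a, Apol9b, Ifit3, Slfn1 and Usp18.

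Apol9a and Apol9b, interferon-induced members of the apolipoprotein L family on chromosome 15 (77403789 to 77411135 on the minus strand and 77729039 to 77736382 on the plus strand, mm10), had the largest differences in both cell types. Apol9b in Treg was at 8.81, 8.02 and 9.04 CPM in spleen libraries 05, 06 and 04, against 45.2, 43.4 and 38.6 CPM in lymph node libraries 02, 03 and 01. The organs were far apart, with a log2 difference of -2.17 (SE 0.08, 95% interval -2.34 to -2.002, adjusted p = 7.12e-10). Apol9a in Treg was at 5.64, 5.70 and 6.00 CPM in spleen libraries 05, 06 and 04, against 31.8, 29.6 and 27.3 CPM in lymph node libraries 02, 03 and 01, a difference of -2.17 (SE 0.08, adjusted p = 8.72e-10). Within an organ, the 3 libraries of either gene lay much closer together than the organs did. In Tcon, Apol9b was at 0.743, 0.773 and 0.780 CPM in spleen libraries 05, 06 and 04, against 5.72, 5.39 and 5.39 CPM in lymph node libraries 02, 03 and 01. Apol9a was at 0.666, 0.585 and 0.662 CPM in spleen libraries 05, 06 and 04, against 5.12, 4.31 and 4.53 CPM in lymph node libraries 02, 03 and 01, and neither overlapped between organs. Their log2 differences were -1.88 (SE 0.11, adjusted p = 6.01e-06) and -1.79 (SE 0.12, adjusted p = 1.38e-05). In Tcon both were below 1 CPM in all 3 spleen libraries, and every listed gene reached 1 CPM in at least 3 libraries. They were thus listed through the lymph node libraries and had to differ, so their call in Tcon is a description. Of the 50-base words of Apol9b, 52.3% also occur in Apol9a, so these are not independent measurements and the split of reads between them is uncertain.

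In the IFIT family and the ISG15 system, 3 of 6 genes were called in Treg and 2 of 6 in Tcon, with median differences of -0.36 and -0.45. Ifit3 in Treg was at 15.9, 9.31 and 13.3 CPM in spleen libraries 05, 06 and 04, against 44.3, 27.3 and 22.3 CPM in lymph node libraries 02, 03 and 01. The highest spleen library lay below the lowest lymph node library, and library 02 stood above the other lymph node libraries. The difference was -1.19 (SE 0.19, 95% interval -1.60 to -0.78, adjusted p = 0.000701), and in Tcon, at 16.8, 8.34 and 17.0 CPM in spleen libraries 05, 06 and 04, against 39.6, 21.9 and 22.0 CPM in lymph node libraries 02, 03 and 01, it was -0.95 and was not called (adjusted p = 0.0837). Ifit3 and Ifit3b share 51.2% of the 50-base words of Ifit3. Ifit1, which binds viral RNA that lacks the methylation of host caps, was at 24.8, 16.0 and 19.4 CPM in spleen libraries 05, 06 and 04, against 36.0, 25.7 and 28.9 CPM in lymph node libraries 02, 03 and 01 in Treg. Its difference was -0.57 (SE 0.13, adjusted p = 0.00999), and it lost the call without library 02 (-0.43, adjusted p = 0.128). In Tcon, Ifit1 was at 14.3, 7.94 and 16.1 CPM in spleen libraries 05, 06 and 04, against 27.6, 20.7 and 24.4 CPM in lymph node libraries 02, 03 and 01, with a difference of -0.91 (SE 0.19, adjusted p = 0.0236), which was lost without library 03 (-0.98, adjusted p = 0.114).

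Usp18, which strips ISG15 from proteins and blocks signalling at the type I interferon receptor, was at 21.9, 18.2 and 21.3 CPM in spleen libraries 05, 06 and 04, against 35.6, 27.6 and 29.1 CPM in lymph node libraries 02, 03 and 01 in Treg. The organs did not overlap, and the difference of -0.56 (SE 0.10, adjusted p = 0.00110) was called in every fit with 1 library left out. In Tcon it was at 13.8, 8.78 and 11.1 CPM in spleen libraries 05, 06 and 04, against 22.9, 14.7 and 18.9 CPM in lymph node libraries 02, 03 and 01, a difference of -0.70 (SE 0.17, adjusted p = 0.0442) that was kept in 2 of 6 fits and lost without library 01, 02, 04 or 06 (adjusted p up to 0.154). Ifit2 had differences of -0.16 in Treg (adjusted p = 0.0572) and -0.19 in Tcon (adjusted p = 0.0619), neither called. Isg15, the ubiquitin-like modifier itself, was at 19.3, 13.99 and 14.4 CPM in spleen libraries 05, 06 and 04, against 18.7, 13.1 and 13.0 CPM in lymph node libraries 02, 03 and 01 in Treg. Its organs overlapped, with a difference of 0.09, and that of the RNA exonuclease gene Isg20 was -0.13.

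Of the 5 oligoadenylate synthetase genes, 3 were called lower in spleen in Treg and 1 in Tcon, with medians of -0.44 and -0.43. Oas2 in Treg was at 13.5, 9.19 and 9.72 CPM in spleen libraries 05, 06 and 04, against 22.0, 13.0 and 14.7 CPM in lymph node libraries 02, 03 and 01, where spleen library 05 exceeded lymph node library 03, and the difference was -0.56 (SE 0.16, adjusted p = 0.0267). In Tcon, Oas2 at 32.1, 25.9 and 28.6 CPM in spleen libraries 05, 06 and 04, against 50.04, 37.1 and 44.7 CPM in lymph node libraries 02, 03 and 01 did not overlap between organs and had a difference of -0.58 (SE 0.11, adjusted p = 0.0137). With 1 library left out, the call in Treg was kept in 3 of 6 fits and lost without library 01, 02 or 04 (adjusted p up to 0.221), and that in Tcon was kept in 3 of 6 fits and lost without library 01, 04 or 06 (adjusted p up to 0.0715). Oasl2 in Treg, at 8.43, 6.45 and 7.17 CPM in spleen libraries 05, 06 and 04, against 16.6, 9.68 and 10.3 CPM in lymph node libraries 02, 03 and 01, had a difference of -0.63 (SE 0.15, adjusted p = 0.0123), without overlap. Oasl1 in Treg, at 6.50, 4.92 and 4.16 CPM in spleen libraries 05, 06 and 04, against 8.84, 7.38 and 5.94 CPM in lymph node libraries 02, 03 and 01, overlapped between organs and had a difference of -0.44 (SE 0.12, adjusted p = 0.0197). With 1 library left out, the Oasl2 call was kept in 5 of 6 fits and lost without library 02 (adjusted p up to 0.0952), and the Oasl1 call was kept in 3 of 6 fits and lost without library 01, 02 or 04 (adjusted p up to 0.148). Oas1a had a positive difference in Treg, 0.14, and Oas3 one of -0.10, neither of them called.

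**Figure D4:**
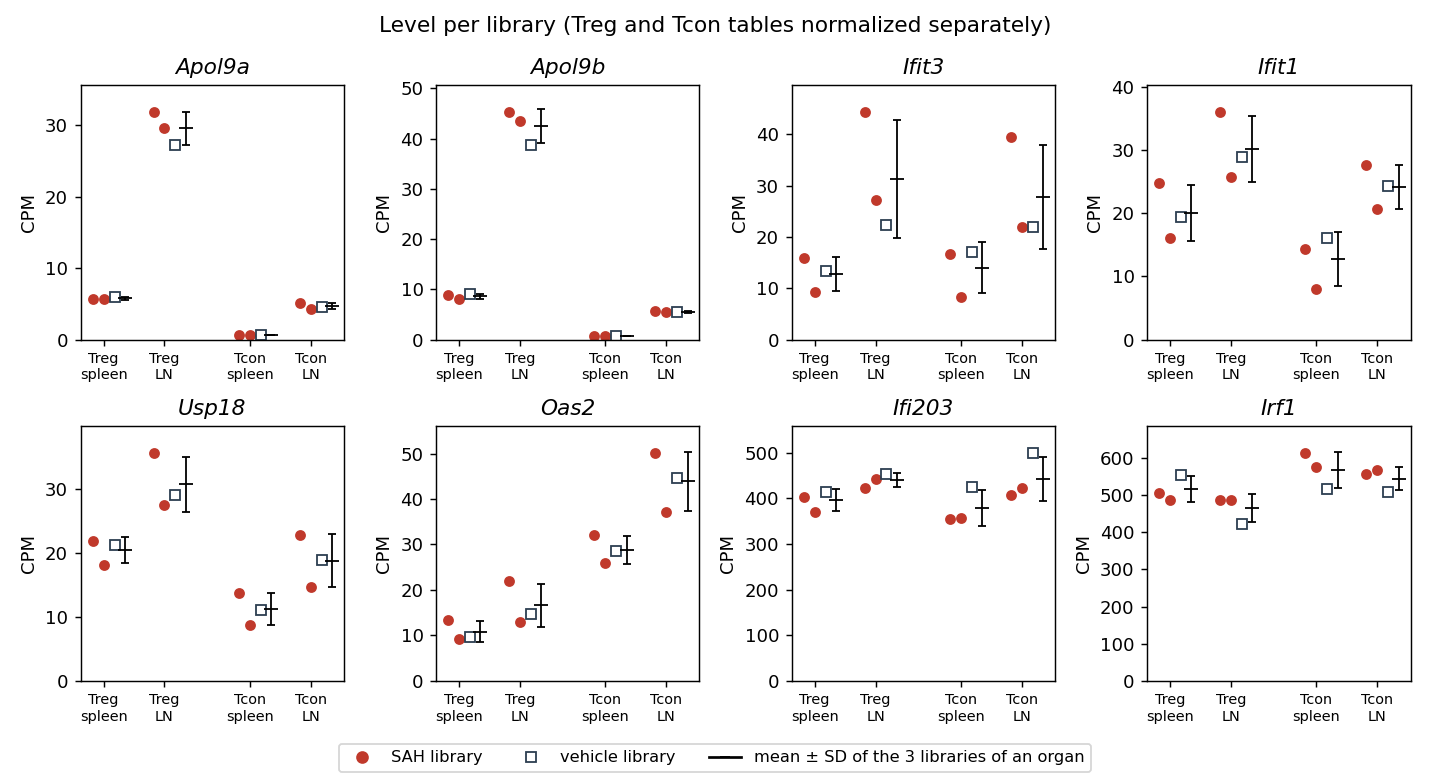
Levels in CPM of 8 members in each library, with Treg from spleen and lymph node (LN) to the left of Tcon from spleen and lymph node. Filled circles are SAH libraries, open squares vehicle libraries, and bars mean and SD of the 3 libraries of an organ. Apol9a and Apol9b separate by organ with little spread, Ifit3, Ifit1 and Usp18 separate with wide spread, Oas2 separates in Tcon and overlaps in Treg, and Ifi203 in Tcon has both vehicle libraries above the SAH libraries of their organ.

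Among other antiviral effectors, 3 of 11 were called in Treg and 2 of 11 in Tcon, the Apol9 pair included. Bst2, the tether that holds budding virus at the membrane, was at 33.6, 33.4 and 33.6 CPM in spleen libraries 05, 06 and 04, against 45.4, 36.4 and 37.9 CPM in lymph node libraries 02, 03 and 01 in Treg. The difference was -0.24 (SE 0.08, adjusted p = 0.0467), and with 1 library left out the call was kept in 2 of 6 fits and lost without library 01, 02, 04 or 05 (adjusted p up to 0.262). Mx1 (-0.57 in Treg, -0.15 in Tcon), Rsad2 (0.05 and -0.55), the antiviral chaperone gene Rtp4 (-0.21 and -0.68), the apoptosis regulator gene Xaf1 (-0.33 and -0.41) and Lgals3bp, which encodes a galectin-binding glycoprotein (-0.15 and -0.33), were not called. Ly6e was at 0.12 in Treg and 0.16 in Tcon, Ly6a, the stem cell antigen Sca-1, at 0.02 and -0.05, and Samhd1 at -0.09 and 0.14, also not called. Of the 2 remaining induced proteins, Ifi35 was called in Treg (-0.21, adjusted p = 0.0362), and the call was kept in 2 of 6 fits and lost without library 02, 03, 05 or 06 (adjusted p up to 0.223). Ifi44, listed in Tcon alone, was at 3.10, 1.254 and 2.03 CPM in spleen libraries 05, 06 and 04, against 6.45, 3.06 and 3.09 CPM in lymph node libraries 02, 03 and 01, and its difference of -0.72 was not called (adjusted p = 0.171).

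Transcription factor and sensor genes had smaller differences. Irf9, the DNA-binding partner of STAT2, was called lower in spleen in Treg (-0.18, SE 0.05, adjusted p = 0.0310), and its exons overlap those of Rnf31 in the annotation. Irf7, which drives interferon genes and whose exons overlap Phrf1, stood at -0.16 in Treg and -0.33 in Tcon. Stat2 stood at -0.10 and -0.10, Sp100 at -0.09 and -0.09, and Irf1 had positive differences of 0.15 and 0.06, none of them called. Zbp1, a sensor of Z-form nucleic acid, was at 103, 84.5 and 96.0 CPM in spleen libraries 05, 06 and 04, against 128, 107 and 104 CPM in lymph node libraries 02, 03 and 01 in Treg. The organs just failed to overlap, and its difference was called (-0.25, SE 0.08, adjusted p = 0.0479). Ifi203 was called in Tcon (-0.23, SE 0.05, adjusted p = 0.0222). Its organs overlapped, as spleen vehicle library 04 (424.3 CPM) lay above lymph node SAH libraries 02 and 03 (408.2 and 422.7 CPM). The RNA sensor genes Ddx58 (RIG-I), Ifih1 (MDA5) and Dhx58 (LGP2) were at 0.04, -0.16 and -0.28 in Treg and -0.20, -0.29 and -0.47 in Tcon, and were not called. With 1 library left out, the Irf9 call was kept in 3 of 6 fits and lost without library 01, 02 or 04 (adjusted p up to 0.193). The Zbp1 call was kept in 2 of 6 fits and lost without library 01, 02, 04 or 06 (adjusted p up to 0.309), and the Ifi203 call was kept in 1 of 6 fits and lost without library 01, 03, 04, 05 or 06 (adjusted p up to 0.127).

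Of the 10 measured GTPases, which act on pathogen vacuoles, Ifi47 was called in Treg, at 129, 122 and 117 CPM in spleen libraries 05, 06 and 04, against 147, 142 and 137 CPM in lymph node libraries 02, 03 and 01, with no overlap and a difference of -0.21 (SE 0.05, adjusted p = 0.00740). Gbp6 was called in Tcon, at 174, 146 and 182 CPM in spleen libraries 05, 06 and 04, against 221, 207 and 198 CPM in lymph node libraries 02, 03 and 01, with no overlap and a difference of -0.33 (SE 0.08, adjusted p = 0.0481), although 65.0% of its 50-base words also occur in the annotated gene Gm43302. The others, Gbp2, Gbp4, Gbp7, Gbp9, Igtp, Irgm1, Irgm2 and Iigp1, were called in neither cell type, and the lowest difference among them was that of Irgm1 in Tcon (-0.33). With 1 library left out, the Ifi47 call was kept in 3 of 6 fits and lost without library 01, 02 or 04 (adjusted p up to 0.0725), and the Gbp6 call was kept in 2 of 6 fits and lost without library 02, 03, 05 or 06 (adjusted p up to 0.193). In the annotation, exons of Gbp4 and Gbp9 overlap each other, as do those of Igtp and Irgm2 and those of Parp9 and Dtx3l. Of the 4 genes of the Schlafen family, Slfn1 was called in Treg, at 79.4, 86.03 and 79.9 CPM in spleen libraries 05, 06 and 04, against 103, 96.2 and 100.1 CPM in lymph node libraries 02, 03 and 01, with no overlap and a difference of -0.29 (SE 0.05, adjusted p = 0.00192). Slfn5 was called in Treg (-0.20, adjusted p = 0.0458) and Slfn8 in Tcon, at 117, 105 and 122 CPM in spleen libraries 05, 06 and 04, against 130.5, 126 and 150.3 CPM in lymph node libraries 02, 03 and 01 (-0.24, SE 0.06, adjusted p = 0.0412). With 1 library left out, the Slfn5 call was kept in 1 of 6 fits and lost without library 01, 02, 03, 04 or 06 (adjusted p up to 0.264), and the Slfn8 call was kept in 1 of 6 fits and lost without library 01, 02, 03, 04 or 06 (adjusted p up to 0.189). Slfn2 and the 4 ubiquitin and ADP-ribose genes were called in neither cell type.

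**Figure D5:**
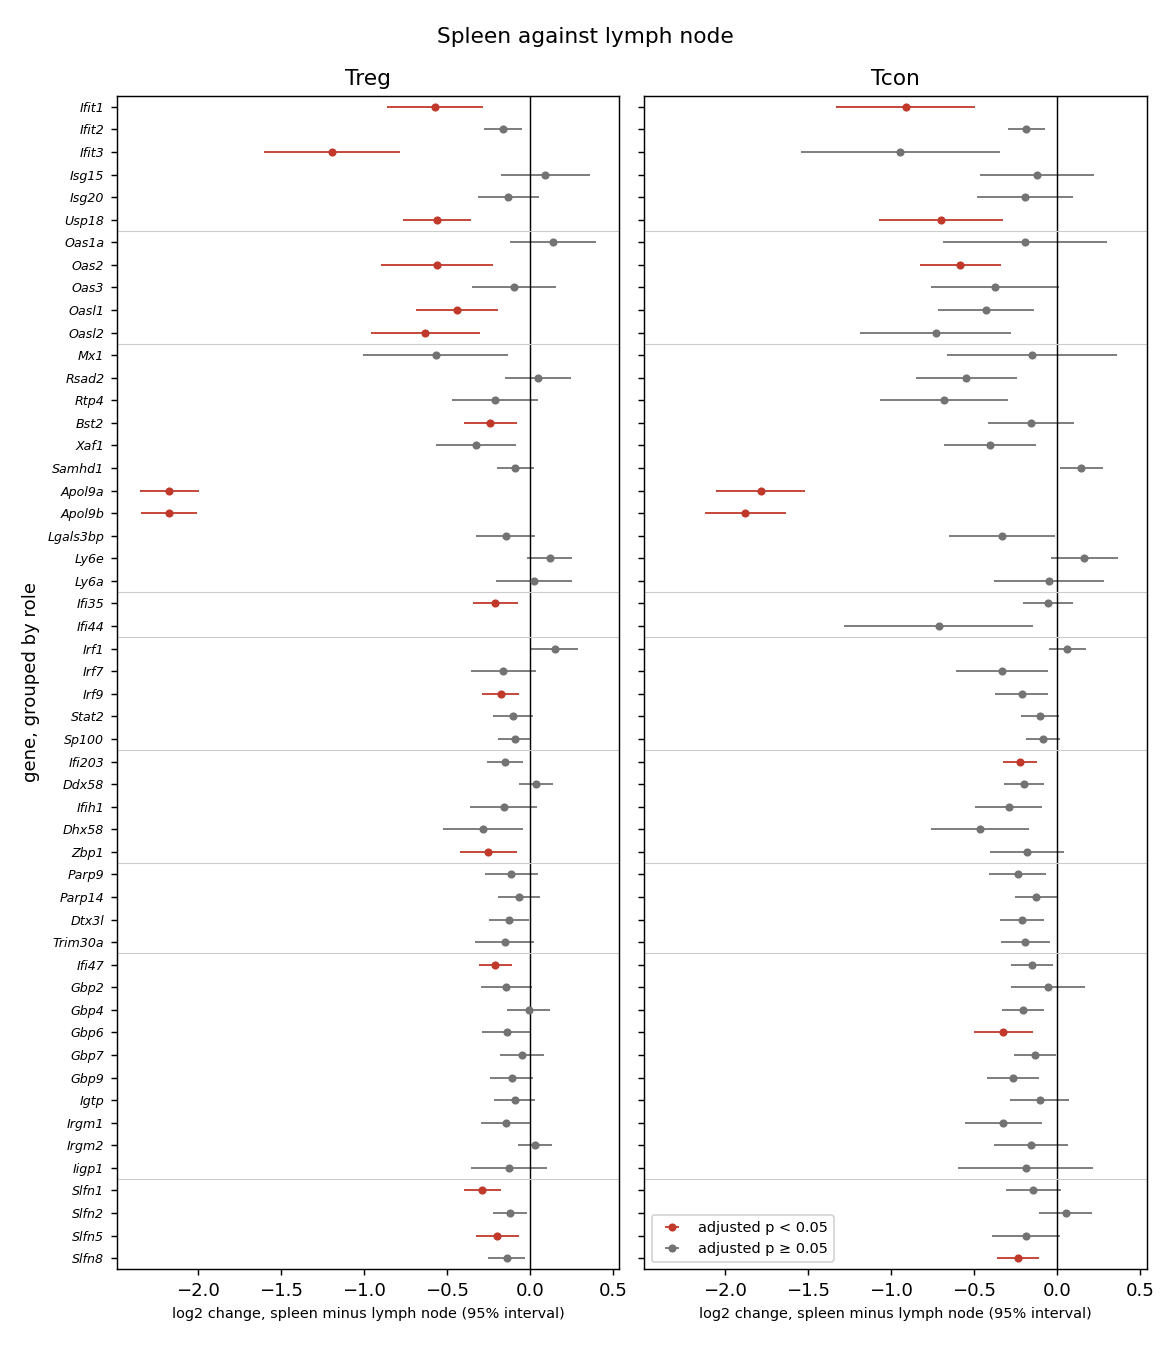
Each point is the log2 difference of 1 member, spleen minus lymph node, with its 95% interval (x axis), for Treg (left panel) and Tcon (right panel), members grouped by role from top to bottom. Red marks an adjusted p below 0.05, which 15 members in Treg and 8 in Tcon have, all left of 0. Apol9a and Apol9b lie near -2, apart from the others.

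Whether the organ difference itself differed between the cell types was tested over all 12 libraries. No member was called (limma, lowest adjusted p of 0.134), where 1.46% of all genes were, 0.368% higher and 1.09% lower. An unadjusted p below 0.05 was reached by 1190 of all 9784 genes and by 6 of the 51 members. These were Rsad2 (0.59, Treg minus Tcon), Ddx58 (0.24), Gbp4 (0.20), Samhd1 (-0.23), Apol9a (-0.38) and Apol9b (-0.29). With the shared library number as a block, 7 members were called, where 7.19% of all genes were. In that fit the spleen difference was higher in Treg for Rsad2 (0.59, adjusted p = 0.00407), Rtp4 (0.47, adjusted p = 0.00288), Oas3 (0.28, adjusted p = 0.0486), Ddx58 (0.24, adjusted p = 0.00732), Gbp4 (0.20, adjusted p = 0.0309) and Gbp6 (0.19, adjusted p = 0.0259), and lower for Samhd1 (-0.23, adjusted p = 0.0195). Rsad2 was at 11.05, 11.1 and 9.99 CPM in spleen libraries 05, 06 and 04, against 12.2, 10.2 and 8.89 CPM in lymph node libraries 02, 03 and 01 in Treg and at 7.995, 7.23 and 7.75 CPM in spleen libraries 05, 06 and 04, against 15.5, 11.3 and 8.96 CPM in lymph node libraries 02, 03 and 01 in Tcon, so that spleen lay below lymph node in Tcon alone. Rtp4 was at 22.6, 16.6 and 20.3 CPM in spleen libraries 05, 06 and 04, against 28.2, 20.2 and 21.2 CPM in lymph node libraries 02, 03 and 01 in Treg and at 20.2, 13.6 and 24.7 CPM in spleen libraries 05, 06 and 04, against 37.7, 25.2 and 31.2 CPM in lymph node libraries 02, 03 and 01 in Tcon, where spleen lay wholly below.

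Other genes of the interferon pathway were taken from a list of 123, of which 106 were measured in Treg and 104 in Tcon. Over all genes, 0.202% were called after SAH in Treg and 1.04% in Tcon. Of the pathway genes, 0 of 106 were called in Treg (limma, 9 with an unadjusted p below 0.05, against 733 of all 10405 genes), and 1 of 104 in Tcon. This was Socs3, a feedback inhibitor of cytokine receptors, at 143 and 123 CPM in spleen SAH and 82.2 CPM in spleen vehicle, and at 103 and 118 CPM in lymph node SAH and 72.3 CPM in lymph node vehicle, a log2 change of 0.64 (SE 0.08, adjusted p = 0.00520). Between organs, 10 were called higher and 17 lower in spleen in Treg, and 6 higher and 4 lower in Tcon. Over all genes 8.71% were called higher and 6.01% lower in Treg, and 3.28% and 1.46% in Tcon. Without libraries 02 and 06, 14 pathway genes were higher and 11 lower in Treg, and 19 were higher and 10 lower in Tcon. With all libraries the median difference of the list was -0.05 in both cell types.

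Ligand and receptor genes were read beside them. The type I receptor genes Ifnar1 and Ifnar2 were called in neither cell type. Ifngr1, a chain of the interferon gamma receptor, was higher in spleen in Treg (0.68, adjusted p = 8e-07) and in Tcon (0.36, adjusted p = 0.0483). Ifng, which encodes interferon gamma, was at 28.7, 23.9 and 30.4 CPM in spleen libraries 05, 06 and 04, against 4.29, 3.47 and 3.07 CPM in lymph node libraries 02, 03 and 01 in Tcon, a difference of 2.64 (adjusted p = 1.64e-06). In Treg it was at 12.2, 13.96 and 13.5 CPM in spleen libraries 05, 06 and 04, against 9.14, 9.86 and 8.53 CPM in lymph node libraries 02, 03 and 01, a difference of 0.48 (adjusted p = 0.00223). The organ difference of Ifng in Treg minus that in Tcon was -2.15 (adjusted p = 3.17e-06). The chemokine gene Ccl5 was higher in spleen as well, by 1.31 in Treg and 3.51 in Tcon on the log2 scale, with Treg minus Tcon at -2.19 (adjusted p = 0.000582). Markers of CD8 T cells and natural killer cells are given beside them. In Tcon, Nkg7 was at 14.8, 16.3 and 21.2 CPM in spleen libraries 05, 06 and 04, against 2.09, 1.07 and 1.36 CPM in lymph node libraries 02, 03 and 01, and Klrb1c and Klrk1 differed likewise. Cd8b1 was at 14.3, 13.5 and 13.99 CPM in spleen and 14.4, 14.1 and 13.8 CPM in lymph node. Eomes was higher in spleen in Tcon too, while Prf1 (12.17 to 12.91 CPM in spleen and 10.95 to 11.65 CPM in lymph node) and Klrd1 differed less. In Treg the sum of the 5 listed markers was lower in spleen, as was Nkg7 (9.62 to 12.0 CPM, against 18.3 to 22.4 CPM in lymph node). Klrb1c and Eomes were higher in spleen in Treg, and Cd8b1 and Prf1 overlapped between organs. The part of these cells in Tcon was not tested. Stat4 was higher in spleen in both cell types (0.46 in Treg and 0.48 in Tcon).

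The remaining pathway genes called lower in spleen in Treg were led by Ifit3b (-1.19), the RNA-sensing receptor gene Tlr7 (-0.66), Trim34a (-0.38) and Daxx (-0.34). Of the 50-base words of the member Ifit3, 51.2% also occur in Ifit3b, so these 2 genes are not independent measurements. Tlr7 was at 26.5, 27.8 and 24.1 CPM in spleen libraries 05, 06 and 04, against 42.5, 43.9 and 39.3 CPM in lymph node libraries 02, 03 and 01, without overlap. Cxcl10, a chemokine gene of the response, was higher in spleen in Treg (0.60, adjusted p = 0.00445) at 41.4, 26.1 and 18.9 CPM in spleen libraries 05, 06 and 04, against 20.6, 19.5 and 13.7 CPM in lymph node libraries 02, 03 and 01, where library 05 stood above the rest, and Ube2l6, which encodes the conjugating enzyme of ISG15, was higher too (0.42, adjusted p = 0.00410). In Tcon the genes called lower were Mx2 (-0.79), Ddx60 (-0.35), Parp11 (-0.27) and Ptpn6 (-0.23), and Irf5 (0.59) and Cish (0.33) were called higher.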

How the data were processed

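RNA of 12 libraries was measured by RNA-seq. Per the submitters' processing notes, TopHat, Bowtie, edgeR and mm10 were used, with no version or strand setting given. The deposited signal is, per the file headers, CPM, in a table normalized separately by the authors for each cell type. Its columns total 971927.9 to 1021433.4, so it was treated as scaled signal and not as counts. The authors also deposited log2 fold changes, p-values with false discovery rates, and a likelihood ratio score with a call per gene.

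Genes at 1 CPM in at least 2 libraries entered limma 3.58.1 (R 4.3.3) on log2(CPM + 1), which understates changes of low genes, with an intensity trend. The test is two-sided. P-values were adjusted by Benjamini-Hochberg within each table, and calls are below 0.05. Models held organ and treatment within a cell type (3 residual degrees of freedom), their interaction (2), or both cell types together (6). The test was run on simulated data in which genes varied independently. That check does not cover shifts shared by many members, as in libraries 02 and 06. Alternatives changed the pseudocount, filter, scaling, trend and libraries used.

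The members, roles and other lists were chosen with earlier results of these data known. Named with values are members called in a comparison, at most 10 by size, and the most abundant of each role. Pathway genes are named when called, at most 10 per comparison, while Ifnar1 and Ifnar2 are named for their role. Sequences are from RefSeq GRCm38.p6 and positions from GENCODE vM21 (mm10). The labels give the shared library numbers but do not say what the libraries of a number share. Residuals of the additive fit correlated at 0.286 to 0.537 over 9784 genes between Treg and Tcon libraries of the same number, and each Treg library matched its own number best. In that fit the residuals of libraries 01 and 04 mirror each other, so their correlation of 0.286 is 1 value and the matches are not separate. Precision rests on 1 vehicle library per organ and cell type.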

Additional observations from a re-analysis of the deposited data

How the results depend on the processing

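Of 359 pairs of a called gene and an alternative setting, 274 stayed past the threshold in the same direction, 85 did not and 0 changed direction. The SAH count in Treg was 0 to 3 with 1 library left out and 1 without libraries 02 and 06. In Tcon it was 0 without the intensity trend, 0 to 1 with 1 library left out and 5 without 02 and 06. The organ count in Treg was 7 without the trend, 5 to 22 with 1 library left out and 8 without 02 and 06. In Tcon it was 3, 3 to 10 and 15 under the same settings. The count for the difference of SAH effects between organs in Treg was 0 to 5 with 1 library left out. The count for the difference of organ effects between cell types was 2 with log2(CPM + 4) (Apol9a and Apol9b, lower) and 7 with the replicate block. Those fits called 140 and 703 of all genes, against 143 in the main fit. The block, fitted only for these differences between cell types, left the SAH difference at 0 members, with 76 of all genes called against 0 without it. Without the trend, organ calls over all genes fell to 1053 in Treg and 351 in Tcon, against 1531 and 468 with it. SAH calls over all genes in Tcon fell to 11, against 103. Calls over all genes also moved with libraries left out, as given above. The causes were not tested. Under other pseudocounts, filters and scalings, counts stayed within 1.5 times. Leaving out 02 and 06 was chosen after seeing the members' values in them, and was bound to shrink the organ difference of most members. The planned count test on the rebuilt reads was not run, and interactions without a vehicle library, or within a cell type without 02 and 06, could not be estimated. With 1 vehicle library per organ, vehicle spread cannot be measured within an organ.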

Other observations

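The 15 genes of antigen presentation in the pathway list (class I and class II genes and their processing machinery) were all measured. None was called after SAH or between organs in either cell type (limma). For the SAH effect in spleen minus that in lymph node, 15 of 15 had a negative sign in Treg, with a median log2 difference of -0.09, and 14 of 15 in Tcon, with a median of -0.11. An unadjusted p below 0.05 was reached by 0 of them in either cell type for that difference. Over all genes, 51.6% in Treg and 52.3% in Tcon had a negative sign. Without library 02 the count was 15 in Treg (median -0.06) and 9 in Tcon (-0.01), and without library 06 it was 14 in Treg (-0.09) and 10 in Tcon (-0.03).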
